A study of Mus musculus with 9 samples.

Results

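Regulatory T cells (Tregs) of Mi2 mice that lack TSLPR were compared with control Tregs, gene by gene. Crlf2 encodes TSLPR, which binds the cytokine TSLP. The comparison used 3 of the 9 samples of the series: 1 library of TSLPR-negative Mi2 Tregs and 2 control libraries (Ctl). The table of Treg values held 33022 RefSeq transcripts of 24016 symbols, and each symbol was represented by its transcript with the highest mean. Of these, 12206 had a mean of at least 10 normalized reads over 5 Treg libraries, and the 11803 that do not lie on chromosome X or Y were compared.

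All Tregs were sorted by flow cytometry, directly ex vivo, from skin-draining lymph nodes. The labels give the TSLPR-negative cells and 2 libraries of TSLPR WT Tregs as coming from Mi2 mice, and the control Tregs only as Ctl. Mi2 points to Mi-2β (gene Chd4), an ATPase that remodels chromatin. The table's columns mark the control libraries as WT and the Mi2 libraries as knock-outs. They call the TSLPR-negative library TMDKO and all the cells skin Tregs. Chd4 (chr6:125046181-125080519, plus strand, mm9) was not lower in these Mi2 Tregs: it was at 11757 and 15129 normalized reads in Ctl, 15392 in the TSLPR-negative library and 12374 and 13659 in the TSLPR WT Mi2 libraries (log2 change of TSLPR-negative minus Ctl 0.21, limma adjusted p = 0.844). Reads were summed over its exons, and the labels do not say in which cells a deletion lies. Strain, age and sex of the mice, the promoter behind any deletion, how TSLPR-negative cells were obtained, pooling, and which of 2 library kits served which sample are not stated in the labels. The labels do not say that replicates came from separate mice, so the spread between them may be technical, and the lone TSLPR-negative library has no replicate at all.

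As background, Tregs are CD4 T cells that restrain other immune cells and are defined by the transcription factor Foxp3. TSLP is an epithelial cytokine that signals through a receptor made of TSLPR and the interleukin-7 receptor chain, and the signal runs through Janus kinases to STAT5. Tregs in lymph nodes range from resting cells to effector cells, which divide more and carry genes for migration into tissue and for suppression.

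The 3 libraries held 21849381 (Ctl replicate 1), 32238992 (Ctl replicate 2) and 30629057 (TSLPR-negative) reads over transcripts. Values are reads scaled by the authors to one common total, and 1 read was worth 1.18, 0.802 and 0.844 normalized reads in these libraries. The log2 values of the TSLPR-negative library correlated at 0.957 and 0.960 with the Ctl libraries, and the Ctl libraries with each other at 0.979; these correlations run across genes, which do not count as replicates. The libraries differed in transcripts of the sex chromosomes, which stand outside the genes compared. Xist, the RNA made from the inactive X chromosome, was at 25266 and 8678 normalized reads in the Ctl libraries, 11903 in the TSLPR-negative library and 19.4 and 6.97 in the TSLPR WT Mi2 libraries. Ddx3y, a Y-linked gene, was at 7.10 and 736 in the Ctl libraries, 0.844 in the TSLPR-negative library and 2378 and 1688 in the TSLPR WT Mi2 libraries. Ctl replicate 2 thus held both kinds of transcript, and Ctl replicate 1 shared the pattern of the TSLPR-negative library. The part of this difference in the results was not tested, but each count that leads below is also given without either Ctl library where it moved by more than 1.5 times. Leaving out a Ctl library does not bear on comparisons of the TSLPR-negative with the TSLPR WT Mi2 libraries. In those, TSLPR status and the sex chromosome pattern cannot be told apart.

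Crlf2, the receptor gene itself (chr5:109983728-109988012, minus strand, mm9), was at 395 and 742 normalized reads in the Ctl libraries and 51.5 in the TSLPR-negative library. The TSLPR-negative value lay below both controls and was carried by 61 reads. The change was -3.37 on the log2 scale (SE 0.367), with an adjusted p of 0.000805 by limma with Benjamini-Hochberg adjustment over all genes. The TSLPR WT Mi2 libraries held 816 and 715 normalized reads, and the TSLPR-negative library was lower than these by a log2 change of -3.87 (SE 0.367, limma adjusted p = 0.00014). Reads were counted over all exons of the gene, so the value does not separate a deleted part from the rest.

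Among the 11803 genes, 316 (2.68%) were called higher and 59 (0.500%) lower in TSLPR-negative Mi2 Tregs than in control Tregs. A gene was called at a limma adjusted p under 0.05. The fit covered 5 Treg libraries and assumed that the lone library varies as the other groups do. All 375 called genes lay outside the range of the Ctl pair, and 294 of those higher and 59 of those lower did so by at least 2-fold from the nearer Ctl library. Without a test, 579 genes (4.91%) lay at least 2-fold above both Ctl libraries and 250 (2.12%) at least 2-fold below both. The median log2 change was 0.046 over all genes compared, 1.78 over those called higher and -2.13 over those called lower. With 1 library against 2, an exact permutation test of a single gene cannot give a p below 0.333, so every call borrows its spread from other libraries and genes.

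The calls also rest on how limma pools that spread. With the spread taken as a function of the level they numbered 375, and with 1 common prior for all levels 1 gene was called, Ltf, although 1029 genes were higher and 466 lower at an unadjusted p under 0.05. Without the filter on low values limma called none, with 1384 higher and 501 lower at an unadjusted p under 0.05. edgeR's quasi-likelihood test on the recovered reads called 339 higher and 57 lower, and 368 of the 375 genes were among them. Leaving out Ctl replicate 1 gave 374 higher and 40 lower, with 307 of the 375 among them. Leaving out Ctl replicate 2 gave 246 higher and 99 lower, with 262 of the 375 among them. Leaving out TSLPR WT Mi2 replicate 1 or 2, which serve only to estimate the spread, gave 493 and 162 or 497 and 161, and all 375 genes were among them each time.

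**Figure D1:**
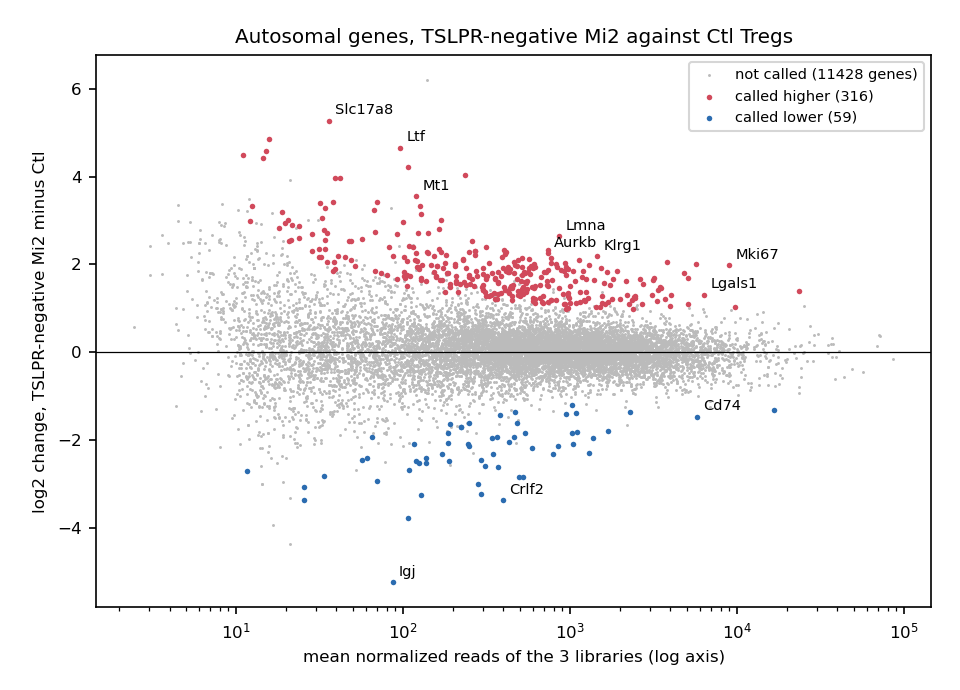
Log2 change of TSLPR-negative Mi2 minus Ctl Tregs for 11803 autosomal genes (vertical axis) against their mean over the 3 libraries in normalized reads (horizontal log axis); red points were called higher (316) and blue points lower (59) by limma, and the rest are grey. Called genes lie mainly above 0, and Mki67 and Lgals1 are among the abundant ones.

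The largest gene group among the rises was the cell cycle. Of 36 listed genes, all were tested, 30 were called higher and none lower, against 2.68% higher among all genes. Each of the 36 lay above both Ctl libraries, 29 of them by at least 2-fold. Among all 11803 genes, 4868 lay above both, 579 of them by at least 2-fold. The median log2 change of the 36 was 1.67 (range 0.779 to 2.28). The 6 that were not called were Bub1, Ccnb1, Ccne2, Cenpa, Mcm4 and Pcna, with limma adjusted p-values from 0.0584 to 0.421. Without Ctl replicate 1, 34 of the 36 were called higher, and without Ctl replicate 2, 27. With 1 common prior for the spread none was called by limma.

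Several genes of mitosis were among the called members. Aurkb, the kinase that corrects chromosome attachment to the spindle (chr11:68859145-68865164, plus strand, mm9), was at 411 and 251 normalized reads in the Ctl libraries and 1541 in the TSLPR-negative library. Aurkb thus lay well above a Ctl pair whose members differed between themselves, and rose by 2.26 on the log2 scale (SE 0.305, limma adjusted p = 0.00254). Cdk1, the kinase that drives entry into mitosis, was at 462 and 275 in Ctl and 1581 in TSLPR-negative cells, 4.29 times the Ctl mean (log2 change 2.15, SE 0.310, limma adjusted p = 0.00397). Plk1, a kinase of spindle assembly, was at 284 and 176 in Ctl and 926 in TSLPR-negative cells (log2 change 2.05, SE 0.315, limma adjusted p = 0.0044). Ccnb2, a mitotic cyclin, went from 621 and 332 to 1853. Stmn1, which destabilises microtubules, had the closest controls of these genes, at 72.2 and 73.8, and stood at 359 in TSLPR-negative cells. Mki67, the usual marker of dividing cells (chr7:142881471-142908062, minus strand, mm9), was at 6258 and 3122 in Ctl and 17547 in TSLPR-negative cells (log2 change 1.99, SE 0.340, limma adjusted p = 0.00583). In all of these except Stmn1, Ctl replicate 1 was the higher control, and the TSLPR-negative value was still above it.

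Genes of DNA replication were called as well. Rrm1, a subunit of the enzyme that makes deoxynucleotides, was at 2379 and 1971 in Ctl and 6064 in TSLPR-negative cells (log2 change 1.49). Mcm3 and Mcm5, subunits of the replicative helicase, had log2 changes of 1.45 and 1.41, and Mcm2 and Mcm6 of 1.11 and 1.10. Mcm4, another subunit, did not pass the test, with values of 3041 and 2578 in Ctl and 4805 in TSLPR-negative cells. In bulk samples, more dividing cells and more of each RNA per cell cannot be told apart.

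The same genes were higher still in the TSLPR WT Mi2 libraries, which were compared with the same 2 Ctl libraries, so the comparisons are not independent. Aurkb was at 2423 and 2307 there, Cdk1 at 2562 and 2952 and Mki67 at 27384 and 26727. All 36 cell cycle genes of the TSLPR-negative library lay below both TSLPR WT Mi2 libraries. When that difference was tested in the same fit, the median log2 change was -0.695 over the 36, and none of them was called by limma, against 0.178% called lower among all genes. At an unadjusted p under 0.05, limma had 22 of the 36 lower, and edgeR called none and DESeq2 called 1.

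**Figure D2:**
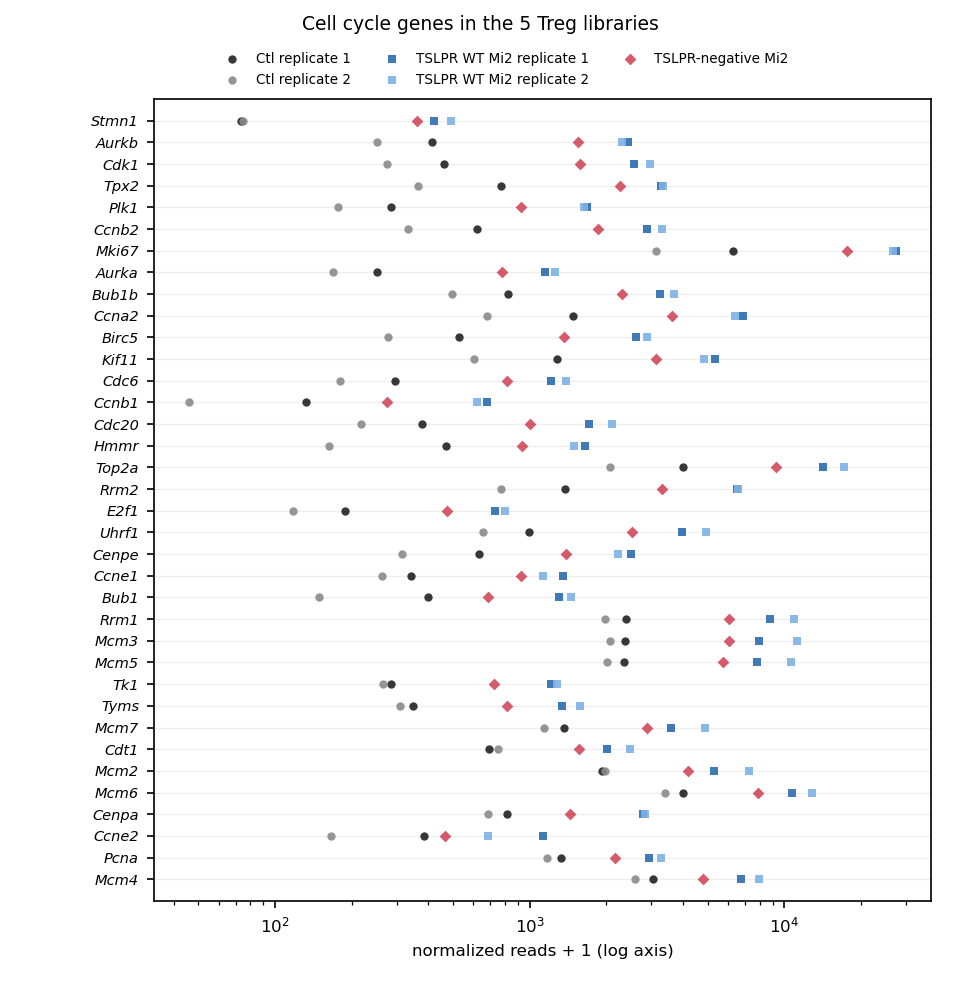
Normalized reads + 1 (log axis) of the 36 listed cell cycle genes in each Treg library, ordered by log2 change of TSLPR-negative Mi2 minus Ctl; 1 symbol is 1 library. The TSLPR-negative library (red diamonds) lies above both Ctl libraries and below both TSLPR WT Mi2 libraries for every gene shown.

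The upstream sequence of 3 mitotic genes is given because the cell cycle genes moved together and many mitotic promoters are known to carry CCAAT boxes and the cell cycle homology element TTTGAA. Each is the 150 bases before the RefSeq start, build GRCm38.p6, read 5′ to 3′ on the gene's strand, with matches to CCAAT and TTTGAA on either strand in capitals:
Cdk1 (chr10:69352913-69353062, minus strand): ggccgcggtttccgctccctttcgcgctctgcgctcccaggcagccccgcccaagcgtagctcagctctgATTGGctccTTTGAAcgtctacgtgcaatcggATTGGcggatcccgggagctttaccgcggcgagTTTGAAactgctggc
Ccnb2 (chr9:70421555-70421704, minus strand): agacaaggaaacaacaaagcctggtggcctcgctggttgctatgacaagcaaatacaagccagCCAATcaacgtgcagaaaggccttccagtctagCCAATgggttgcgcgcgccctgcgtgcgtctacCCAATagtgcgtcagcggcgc
Plk1 (chr7:122159285-122159434, plus strand): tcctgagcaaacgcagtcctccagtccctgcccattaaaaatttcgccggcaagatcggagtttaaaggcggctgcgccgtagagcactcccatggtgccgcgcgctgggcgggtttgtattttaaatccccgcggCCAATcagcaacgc
Cdk1 held 2 matches to each motif, Ccnb2 held 3 to CCAAT and Plk1 held 1 to CCAAT. A RefSeq window was found for 30 of the 36 cell cycle genes, in 32 windows. CCAAT occurred in 75.0% of these windows, against 24.5% of all 32851 windows of the same length and 27.1% of the windows of genes compared here. TTTGAA occurred in 18.8% of them, against 9.07% and 5.22%. A match is a run of letters and not a shown site of binding.

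Genes of the effector Treg state formed another group of rises. Of 32 listed genes, 10 were called higher and none lower, against 2.68% higher and 0.500% lower among all genes, and the median log2 change was 0.848, against 0.046 over all genes. The 10 were Gzmb, Lgals3, Fgl2, Havcr2, S100a11, S100a4, S100a6, Lgals1, Pparg and Prdm1. Without Ctl replicate 2, or after scaling by DESeq2 size factors, 6 of the list were called. Gzmb, Fgl2, Havcr2 and Prdm1 were among those not called without Ctl replicate 2. In the TSLPR WT Mi2 libraries, compared with the same controls, 23 of the 32 were called higher, against 14.8% among all genes. The TSLPR-negative value lay below both TSLPR WT Mi2 libraries for 23 of the 32 and above both for 2. Over all 11803 genes, these counts were 4035 and 4597.

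Pparg, a nuclear receptor of lipid metabolism known from tissue Tregs, was almost silent in control cells at 5.92 and 11.2 normalized reads and stood at 97.1 in TSLPR-negative cells (log2 change 3.41, SE 0.602, limma adjusted p = 0.00672). Lgals3, which encodes galectin-3, was at 363 and 188 in Ctl and 1148 in TSLPR-negative cells (log2 change 2.13, SE 0.340, limma adjusted p = 0.00452). The TSLPR WT Mi2 libraries held 3851 and 3304 of Lgals3, and the TSLPR-negative library was lower than these (log2 change -1.64, limma adjusted p = 0.0391). Lgals1, which encodes galectin-1, was tight in control cells at 4349 and 4203 and reached 10610. S100a6, a calcium-binding protein gene, went from 1755 and 1582 to 4867, and its neighbour S100a4 from 2000 and 2170 to 5105. Gzmb, the cytotoxic protease granzyme B, was at 870 and 452 in Ctl and 1591 in TSLPR-negative cells. Havcr2, the gene of the checkpoint receptor TIM-3, stood at 420 and 259 against 847, and Prdm1, the gene of the transcription factor Blimp-1, at 1390 and 1035 against 2642. Of the 32 listed genes, 22 lay above both Ctl libraries, 3 below both and 7 within their range. Over all 11803 genes, 4868 lay above both and 3661 below both. Areg, a growth factor of tissue repair, was among the 3, at 54.4 and 40.9 in Ctl and 17.7 in TSLPR-negative cells. Maf, a transcription factor, was among the 7, at 2603 and 1833 against 2086. Neither Areg nor Maf passed the test.

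Among 20 tested genes of Treg identity, 2 were called higher and none lower, where 2.68% of all genes were called higher and 0.500% lower. Klrg1, a receptor of terminally differentiated effector cells, was at 767 and 574 in Ctl and 3023 in TSLPR-negative cells, 4.51 times the Ctl mean (log2 change 2.19, SE 0.266, limma adjusted p = 0.00157). Tigit, an inhibitory receptor gene, was at 1344 and 1606 against 3651 (log2 change 1.31, SE 0.275, limma adjusted p = 0.0164). Foxp3, which lies on chromosome X and outside the genes compared, was at 11159 and 15371 in Ctl and 13460 in TSLPR-negative cells, within the range of the controls. Il2ra, the interleukin-2 receptor alpha chain, was at 28215 and 24159 against 34192 and did not pass the test. Ctla4, the inhibitory receptor, was at 13178 and 9247 against 20804 (limma adjusted p = 0.214), and Ikzf2, the gene of Helios, at 16722 and 11413 against 8466 (limma adjusted p = 0.311). Both lay outside the range of the Ctl pair and did not pass the test. Gata3 did not pass it either, at 1880 and 2046 against 1933.

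In the list of the TSLP receptor and the JAK-STAT pathway, Crlf2 alone was called among 16 tested genes, as lower. Crlf2 encodes TSLPR itself, by which the cells are labelled, so its call says nothing about the rest of the list. The other 15 were not called, where 2.68% of all genes were called higher and 0.500% lower. Those shares are too small for 15 genes without a call to stand apart. Il7r, the partner chain of TSLPR, varied widely within the controls, at 13149 and 4762, and stood at 13555 in TSLPR-negative cells. Stat5a was at 2502 and 3012 in Ctl and 2462 in TSLPR-negative cells, and Stat5b at 5698 and 6356 against 5553. Of 15 tested STAT5 target genes none was called by limma, edgeR or DESeq2. At the shares called among all genes, no call in 15 does not set this list apart. Of the 15, 1 was lower at an unadjusted limma p under 0.05, and their median log2 change was -0.019, against 0.046 over all genes. Bcl2, the survival gene in that list, was at 10038 and 6422 in Ctl and 6367 in TSLPR-negative cells. The TSLPR WT Mi2 libraries held far less Bcl2, 995 and 1923, and there the TSLPR-negative library was higher (log2 change 2.20, SE 0.354, limma adjusted p = 0.0129).

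**Figure D3:**
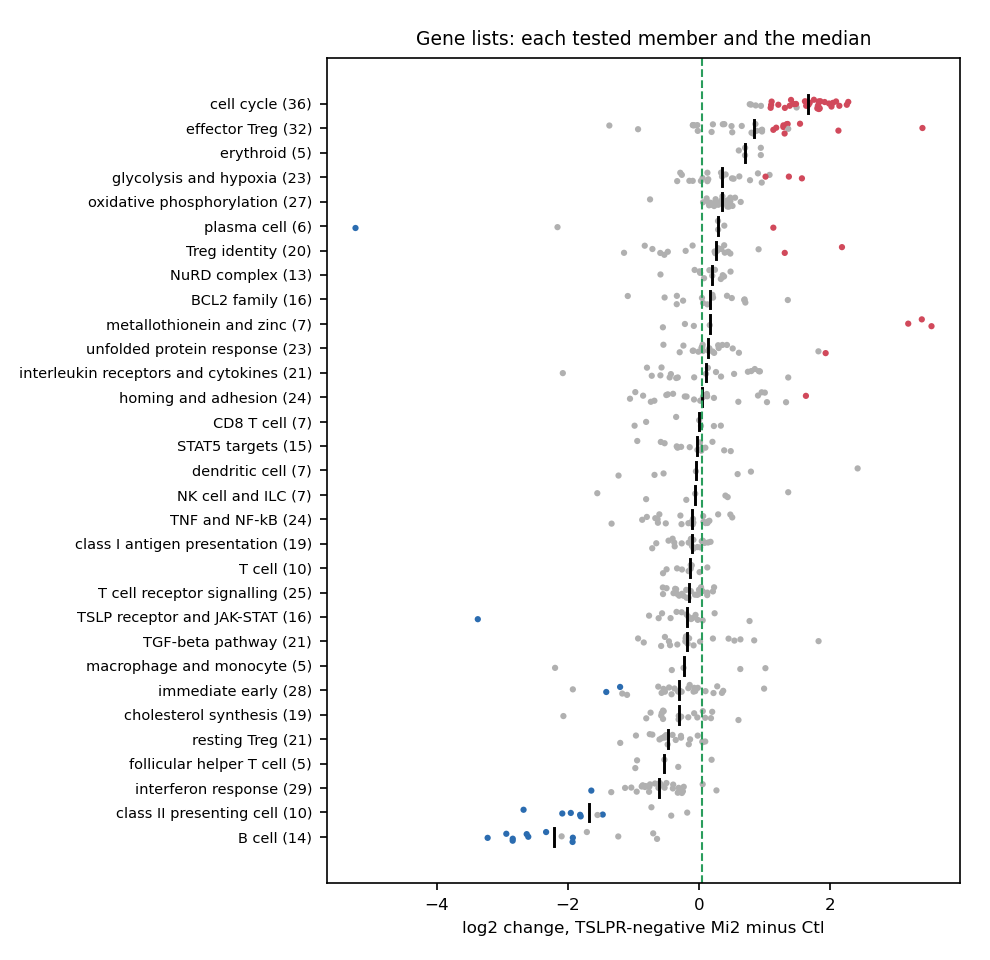
Log2 change of TSLPR-negative Mi2 minus Ctl (horizontal axis) for each tested member of the gene lists with at least 5 tested members; the number tested is in brackets, red and blue points were called higher and lower by limma, black bars are list medians and the green dashed line is the median of all genes (0.046). Cell cycle genes lie at the top with a median of 1.67, and B cell markers at the bottom with -2.21.

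The largest single rises were in genes with low values in control Tregs, at most 61.5 normalized reads. They were taken as the 15 called genes with the largest log2 distance from the nearer Ctl library, and they were Slc17a8, Ltf, Lphn2, Scn4b, Ltb4r1, Dsg2, Pls1, Fmnl2, Mt1, Mt2, Trp73, Col18a1, Pparg, Cxcl16 and Rapgef3. Slc17a8, a vesicular glutamate transporter gene (chr10:89036765-89083994, minus strand, mm9), was at 1.18 and 2.41 normalized reads in Ctl and 105 in TSLPR-negative cells. These are 4 reads in both Ctl libraries against 124, a ratio of 54.8 with a 95% exact counting interval of 20.9 to 204.1 (log2 change 5.28, SE 0.682, limma adjusted p = 0.00195). Reads carried no molecular identifiers, so such intervals cover counting error only. They and the p-values also do not allow for the choice of these genes by their change. Genes had to average at least 20 over the 3 libraries. Those with both Ctl values under 20, such as Slc17a8, reached this only through the TSLPR-negative library. The low control values of the 15 thus come in part from how they were taken. Lphn2, the gene of an adhesion receptor (chr3:148478550-148617599, minus strand, mm9), was at 17.8 and 12.03 against 292 (log2 change 4.23, limma adjusted p = 0.000741). Ltb4r1, the leukotriene B4 receptor that guides leukocyte migration, was at 27.2 and 49.7 in Ctl and 625 in TSLPR-negative cells. Trp73, of the p53 family, was at 35.5 and 26.5 against 318, and Col18a1, a basement membrane collagen gene, at 31.9 and 37.7 against 316. Cxcl16, a chemokine gene, was at 10.7 and 7.22 against 81.0. For 14 of these 15 genes both TSLPR WT Mi2 libraries also lay above both controls; Rapgef3 was the exception, with 250.5 and 58.7 against 61.5 and 40.1 in Ctl and 405 in TSLPR-negative cells.

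Genes with higher control values than these changed as well. The 3 given here were picked after their values were seen. Lmna, which encodes lamins A and C of the nuclear envelope, was at 286 and 338 in Ctl and 1957 in TSLPR-negative cells (log2 change 2.65, SE 0.272, limma adjusted p = 0.000741). Vim, the intermediate filament gene vimentin, was the most abundant called gene, at 15463 and 15286 in Ctl and 40208 in TSLPR-negative cells (log2 change 1.39, limma adjusted p = 0.0123). Malat1, an abundant nuclear long RNA, was the most abundant gene called lower, at 21922 and 19448 in Ctl and 8357 in TSLPR-negative cells (log2 change -1.31, limma adjusted p = 0.0116). In each of these the controls lay close together and far from the TSLPR-negative value.

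Metallothioneins, small proteins that bind zinc and copper, rose as a trio. Mt1 (chr8:96702989-96704227, plus strand, mm9) was at 33.1 and 19.3 normalized reads in Ctl and 307 in TSLPR-negative cells, 11.7 times the Ctl mean (log2 change 3.55, SE 0.417, limma adjusted p = 0.00153). Mt2 was at 8.28 and 5.61 against 81.9, and Mt3 at 4.73 and 4.01 against 48.1. For Mt3 these are 9 reads in both Ctl libraries and 57 in the TSLPR-negative library, a ratio of 11.2 (95% exact counting interval 5.50 to 25.7). The other 4 genes of that list, the metal-sensing factor Mtf1 and 3 zinc transporters, did not pass the test. Mt1, Mt2 and Mt3 are related in sequence, and how reads that match several of them were counted is not given in the sources used here.

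The upstream sequences of Mt1, Mt2 and Mt3 are given because all 3 rose and metallothionein promoters are known for metal response elements, with the core TGCACNC or TGCGCNC. Each is again the 150 bases before the RefSeq start in GRCm38.p6, with matches on either strand in capitals:
Mt1 (chr8:94178939-94179088, plus strand): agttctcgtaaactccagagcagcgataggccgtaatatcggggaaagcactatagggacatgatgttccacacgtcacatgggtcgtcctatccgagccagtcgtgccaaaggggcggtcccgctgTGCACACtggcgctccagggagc
Mt2 (chr8:94172468-94172617, plus strand): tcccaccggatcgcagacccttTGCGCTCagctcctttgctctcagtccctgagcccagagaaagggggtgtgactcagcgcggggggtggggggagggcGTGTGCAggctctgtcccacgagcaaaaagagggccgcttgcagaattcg
Mt3 (chr8:94152457-94152606, plus strand): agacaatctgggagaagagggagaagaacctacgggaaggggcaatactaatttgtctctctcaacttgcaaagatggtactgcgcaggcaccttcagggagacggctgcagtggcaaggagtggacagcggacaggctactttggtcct
Mt1 held 1 match to TGCACNC, Mt2 held 1 to each core and Mt3 held none. Only the 150 bases before each RefSeq start were searched. Cores further upstream, or downstream of that start, were not counted. TGCACNC occurred in 6.12% of all 32851 windows and 6.18% of the windows of genes compared, and TGCGCNC in 9.17% and 15.98%. A match is a description of these letters and not evidence of metal response.

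Other lists held from none to 3 calls, where 2.68% of all genes were called higher. Among 23 tested genes of glycolysis and hypoxia, 3 were called higher: Tpi1, a glycolytic isomerase, at 996 and 942 in Ctl and 2890 in TSLPR-negative cells; Egln3, an oxygen sensor, at 181 and 227 against 528; and Pkm, pyruvate kinase, at 6583 and 7953 against 14671. Of 24 tested homing and adhesion genes, 1 was called, a share near that of all genes: Ccr10, a receptor for a skin chemokine, at 69.8 and 137 against 306 (log2 change 1.64, limma adjusted p = 0.0386). Among 23 tested genes of the unfolded protein response, 1 was called, again near the share of all genes: Asns, asparagine synthetase, at 73.4 and 52.1 against 240 (log2 change 1.94, limma adjusted p = 0.0188). None of 27 oxidative phosphorylation genes was called by limma, edgeR or DESeq2, and 1 had an unadjusted limma p under 0.05. Of the 27, 25 lay above both Ctl libraries, against 4868 of all 11803 genes. Their median log2 change was 0.355, against 0.046 over all genes. Ccr10, Egln3 and Pkm were not called without Ctl replicate 1, nor was Asns without Ctl replicate 2.

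Lists of activation and interferon response genes lay mostly below the controls, with few calls. Over all 11803 genes, 3661 lay below both Ctl libraries and 4868 above both. Among 28 tested immediate early genes, which respond within minutes to receptor signals, 2 were called lower and none higher, against 0.500% lower and 2.68% higher among all genes, and 16 of the 28 lay below both controls. Egr3 was at 1216 and 1165 in Ctl and 447 in TSLPR-negative cells (log2 change -1.41, limma adjusted p = 0.0404), and Egr2 at 1106 and 1442 against 550 (log2 change -1.20, limma adjusted p = 0.0466). Egr3 was not called without either Ctl library, nor Egr2 without Ctl replicate 2. Of the 28, 4 lay above both controls. Among these was Dusp1, at 1079 and 868 in Ctl and 1934 in TSLPR-negative cells, which did not pass the test. Of 29 tested interferon response genes, 1 was called lower, against the same 0.500% among all genes. This was Oas1a, an antiviral enzyme gene, at 273 and 222 against 78.5, and it was not called without either Ctl library or by edgeR. The interferon list had a median log2 change of -0.603 with 22 of 29 below both controls. In the TSLPR WT Mi2 libraries, compared with the same controls, 25 of the 29 were called lower, against 13.0% lower and 14.8% higher among all genes. None of 21 resting Treg genes was called by limma, edgeR or DESeq2 in TSLPR-negative cells, and 6 were lower at an unadjusted limma p under 0.05. Of the 21, 17 lay below both controls, with a median log2 change of -0.473.

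**Figure D4:**
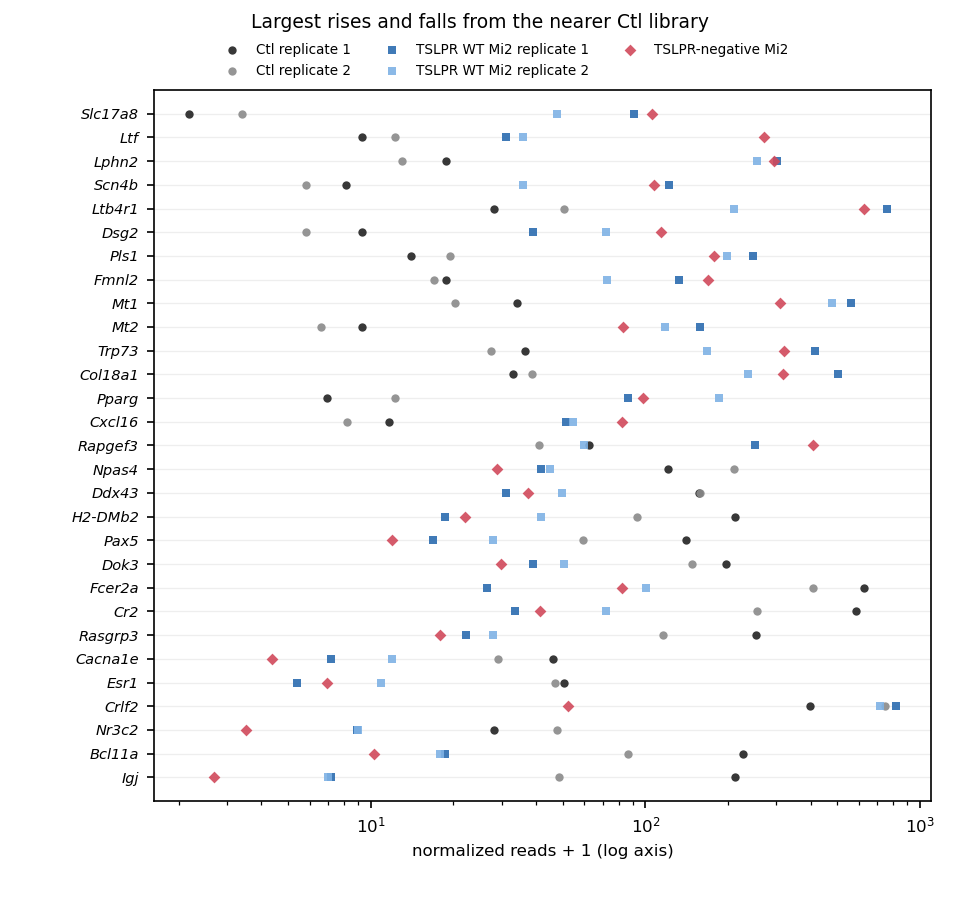
Normalized reads + 1 (log axis) in each Treg library for the 15 called genes with the largest rise and 14 of the 15 with the largest fall from the nearer Ctl library; 1 symbol is 1 library. Crlf2 is low in the TSLPR-negative library (red diamonds) alone, and Ltf is highest there.

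The falls were led by B cell genes. Of the 14 B cell markers, all lay below both Ctl libraries, 12 by at least 2-fold, against 3661 and 250 of all 11803 genes. Of the 14, 9 were called lower, against 0.500% lower among all genes, and the median log2 change was -2.21. Of the 10 class II presentation genes, which B cells and other presenting cells carry, 6 were called lower, with a median of -1.67. These 2 lists held 15 of the 59 genes called lower. The summed level of the B cell markers was 9624 and 5487 normalized reads in the Ctl libraries, 2211 in the TSLPR-negative library and 1738 and 2124 in the TSLPR WT Mi2 libraries. That of the class II genes was 19787 and 13065 in Ctl, 6282 in TSLPR-negative and 6064 and 7890 in TSLPR WT Mi2 libraries. Both sums were highest in Ctl replicate 1. Without that library, 5 B cell and 2 class II genes were called lower, and without Ctl replicate 2, 11 and 6.

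Cr2, a complement receptor gene of B cells (chr1:196963005-197002909, minus strand, mm9), was at 583 and 255 in Ctl and 40.5 in TSLPR-negative cells (log2 change -3.22, SE 0.545, limma adjusted p = 0.00583). Pax5, the transcription factor of B cell identity, stood at 140 and 58.6 against 10.97. Cd74, the class II chaperone, was at 8763 and 5943 against 2614, and H2-Ab1, a class II chain, at 1758 and 1063 against 322. Bcl11a, a transcription factor gene that B cells also use, was at 226 and 85.8 against 9.29. Igj, the joining chain of secreted antibodies, was at 212 and 47.3 in Ctl and 1.69 in TSLPR-negative cells, 238 reads in both Ctl libraries against 2. The Igj ratio was 0.0148, with a 95% exact counting interval of 0.00179 to 0.0542. In each of these genes Ctl replicate 1 was the higher control, and the TSLPR-negative value lay below the lower one. Pax5 was not called without Ctl replicate 1. Igj stands in the list of plasma cell markers and not in the B cell list. Of 6 tested plasma cell markers, 3 lay above both Ctl libraries and 2 below both, Igj among these 2. In that list 1 gene, Prdm1, was called higher and 1, Igj, lower, against 2.68% and 0.500% among all genes. The median log2 change of the list was 0.296.

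Some of the largest falls are not in the B cell or class II lists. Nr3c2, the mineralocorticoid receptor gene, was at 27.2 and 46.5 in Ctl and 2.53 in TSLPR-negative cells, 81 reads against 3, a ratio of 0.0654 (95% exact counting interval 0.0132 to 0.198). Esr1, the oestrogen receptor alpha gene, was at 49.7 and 45.7 against 5.91, and Ddx43, an RNA helicase gene, at 156 and 157 against 36.3. Npas4, a transcription factor gene induced by activity, was at 120 and 210 against 27.9. Esr1 and Ddx43 were not called without either Ctl library, nor Esr1 by DESeq2, nor Nr3c2 and Npas4 without Ctl replicate 2.

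Markers of other cell types gave few calls. The 10 T cell markers summed to 97078 and 119977 normalized reads in Ctl and 94744 in TSLPR-negative cells. None was called by limma, edgeR or DESeq2 or had an unadjusted limma p under 0.05, while DESeq2 had 2 lower at that threshold. Among all genes 2.68% were called higher and 0.500% lower, so no call in 10 does not set this list apart. Of the neutrophil list, Ltf was the only gene that passed the level filter. Ltf, which encodes lactoferrin (chr9:110921796-110945270, plus strand, mm9), was at 8.28 and 11.2 in Ctl, 268 in TSLPR-negative and 29.99 and 34.8 in TSLPR WT Mi2 libraries. It was higher than in Ctl (log2 change 4.66, SE 0.565, limma adjusted p = 0.00157) and than in TSLPR WT Mi2 (log2 change 3.02, limma adjusted p = 0.0256). The whole neutrophil list summed to at most 24.8 in Ctl and to 39.7 and 67.7 in TSLPR WT Mi2 libraries. In TSLPR-negative cells it summed to 291, of which Ltf made up 268. Of its 10 genes, 6 and 4 were at 0 in the Ctl libraries and 6 and 1 in the TSLPR WT Mi2 libraries. In the TSLPR-negative library 2 were at 0, Mpo and Elane. The 10 keratinocyte genes summed to 585 and 681 in Ctl and 684 in TSLPR-negative cells, mostly Sfn, at 497 and 609 against 608. Krt5, Krt14, Krt1, Krt15, Trp63 and Lor were at 0 in the TSLPR-negative library, and 5 of the 10 in each Ctl library. Perp, another member, was at 8.28 and 9.62 against 22.8 and did not pass the test. The part of other cells in the results was not tested.

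**Figure D5:**
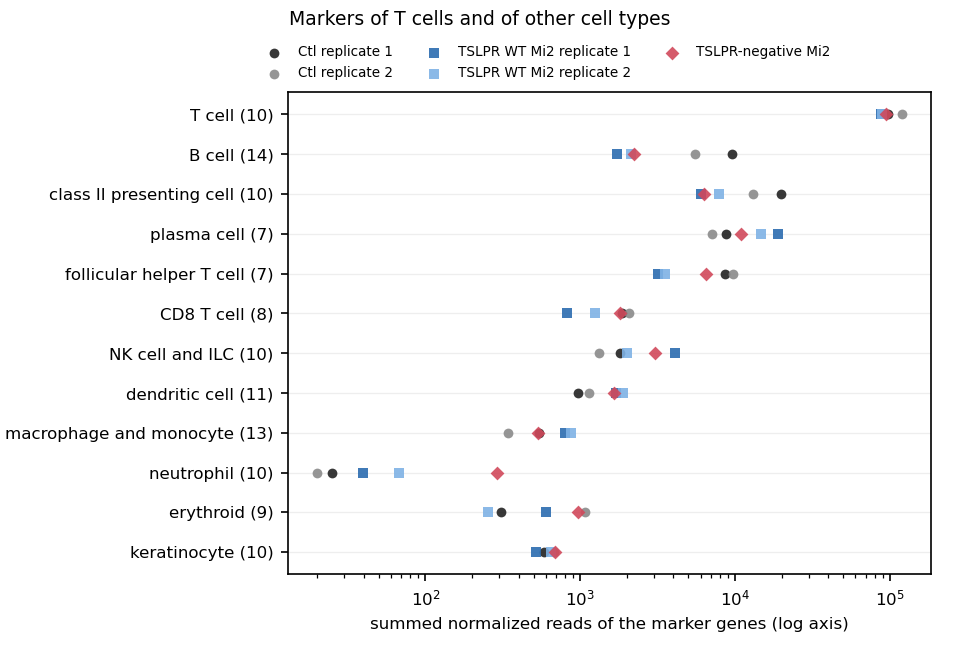
Summed normalized reads (log axis) of marker genes of T cells and of other cell types in each Treg library, with the number of genes in brackets; 1 symbol is 1 library. T cell markers lie together, and B cell and class II markers are highest in the Ctl libraries. The neutrophil list is highest in the TSLPR-negative library, where most of its sum is Ltf.

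The difference from the TSLPR WT Mi2 libraries was tested directly in the same fit. TSLPR status and the sex chromosome pattern cannot be told apart in that test. Xist was at 11903 in the TSLPR-negative library and 19.4 and 6.97 in the TSLPR WT Mi2 libraries, and Ddx3y at 0.84 against 2378 and 1688. Over all genes, 87 (0.737%) were called higher and 21 (0.178%) lower in TSLPR-negative than in TSLPR WT Mi2 Tregs. Of the 375 genes called against Ctl, 5 were also called against TSLPR WT Mi2, and both tests use the same TSLPR-negative library. Ltf and Cyp4f18 were above both groups. Cyp4f18, an enzyme that inactivates leukotriene B4, was at 349 in TSLPR-negative cells, 93.5 and 48.9 in Ctl and 25.6 and 20.9 in TSLPR WT Mi2 cells. Crlf2 and Hey1 were below both groups. Hey1, a Notch target gene, was at 1.69 in TSLPR-negative cells, from 2 reads, 18.9 and 14.4 in Ctl and 36.2 and 33.9 in TSLPR WT Mi2 cells. Hey1 was not called against Ctl without either Ctl library or by edgeR or DESeq2, nor Cyp4f18 without Ctl replicate 2, and both were chosen for mention after their values were seen. Lgals3 lay between the groups. For the remaining 370 genes the test did not find a difference from TSLPR WT Mi2 cells, which does not show that the levels were alike.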

How the data were processed

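RNA sequencing values of 5 sorted Treg libraries were used from 1 deposited table. Its signal was normalized reads that the authors made, per the file headers, with HOMER: reads over RefSeq exons (mm9) were counted per transcript, without a strand setting, and DESeq2 was named for scaling. Reads of a gene and an antisense neighbour cannot be told apart. That command named 7 libraries and the table has 5 of them, with 1 total shared by all columns. The submitters' processing notes list bcl2fastq 1.8.3, STAR, DESeq2, mm9 and mm10. Every value was a whole multiple of the worth of 1 read, within 0.05 reads (100% of values), so reads were recovered for edgeR 4.0.16 and DESeq2 1.42.0 as alternatives.

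limma 3.58.1 with an intensity trend (R 4.3.3) was fitted to log2(value + 1) of 12206 symbols, with 5 libraries in 3 groups, and tested on simulated data. The simulated libraries all had the same spread. That run therefore cannot say whether the lone TSLPR-negative library varies like the others. Log2 changes of low genes are understated by the added 1. P-values were two-sided, adjusted over all 12206, and the 403 genes of chromosomes X and Y were then left out. Genes eligible for naming, of which not all are given, were, among called genes averaging 20 or more, the 15 that rose and the 15 that fell most from the nearer Ctl library, up to 4 members of each programme list with the smallest p, the 3 most abundant of each marker list, and a fixed set around Crlf2 and Foxp3; further list members were added for mention after their values were seen. Members and lists were chosen with earlier results of these data known. Current symbols were found for 32612 transcripts, and promoter windows came from RefSeq (GRCm38.p6). Values of some single genes are not reported here, though list counts and sums include them. The 4 epidermal samples were not used here.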

Additional observations from a re-analysis of the deposited data

How the results depend on the processing

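The counts of genes called higher (316) and lower (59) stayed within 1.5 times under a pseudocount of 5, a mean of at least 50, edgeR, 3 other scalings, the longest transcript and leaving out chromosomes X and Y before the fit, with 248 to 348 higher and 56 to 68 lower. With no filter on low values limma called 0 higher and 0 lower, while 1384 and 501 had an unadjusted p under 0.05, and without the intensity trend it called 1 and 0, with 1029 and 466 at an unadjusted p under 0.05. DESeq2 called 341 higher and 100 lower, and a fit of the 3 libraries alone 456 and 182. Leaving out 1 library at a time gave 246 to 497 higher and 40 to 162 lower. The cause of these shifts was not tested. The 579 genes at least 2-fold above and 250 below both Ctl libraries became 1072 and 533 with no filter, and 117 lay below with a mean of at least 50; since 1 control is then the only bar, they became 820 to 909 above and 424 to 586 below without a Ctl library. Of the single genes named, none that was called changed direction under the alternatives run. Calls of named genes ended for 62 with no filter on low values, 61 without the intensity trend, 1 with a pseudocount of 5, 10 with DESeq2 size factors, 4 with TMM factors, 2 with edgeR, 2 with DESeq2, 9 without Ctl replicate 1 and 15 without Ctl replicate 2. Among those not called, Foxp3 moved to -0.004 under edgeR, -0.037 under DESeq2, -0.02 with DESeq2 size factors and ranged from -0.192 to 0.27 with 1 library left out, Gata3 from -0.082 to 0.04, Maf from -0.32 to 0.186, Sfn from -0.002 to 0.29 and Mtf1 from -0.189 to 0.042. No paired analysis was possible because the TSLPR-negative library carries no replicate number. Depth limits Igj, Nr3c2 and Hey1, with 2 or 3 reads in the TSLPR-negative library, and Slc17a8, with 4 reads summed over the Ctl libraries.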
